A study of Mus musculus with 2 samples.

Results

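The genes examined here encode the enzymes of fatty acid activation, carnitine transport and beta-oxidation, the acyl-CoA thioesterases, the peroxisomal oxidases with catalase, and the peroxins that build peroxisomes. They were chosen by name, from 8 symbol families (Acs, Acot, Acox, Acad, Cpt1 and Cpt2, Pex, Hadh and Hao) together with Ehhadh, Cat and Crat. This gave 70 genes of the 22270 that could be named. The tissue was mouse preglomerular arterioles, small vessels that feed the glomeruli and carry renin cells in their walls, pulled out of kidney cortex by a magnet after iron oxide perfusion. The RBP-J cKO array held pooled RNA of 4 male mice that were RBP-J flox/flox with the R26R ECFP reporter and Ren1d+/cre. The wild type array held pooled RNA of 3 mice, 2 male and 1 female, that were RBP-J flox/flox with the R26R ECFP reporter and Ren1d+/+. RBP-J binds DNA and carries Notch signals to target genes. Both pools carried the floxed RBP-J gene and the R26R ECFP reporter, and cre at 1 Ren1d allele separated them. Cre driven from the renin gene acts in cells with a renin history, so other cells of the preparation keep RBP-J. All animals were 3 months old and of mixed 129Sv and C57Bl6 background.

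Fatty acids are first joined to coenzyme A by acyl-CoA synthetases. Long chains then enter mitochondria as carnitine esters and are shortened by the acyl-CoA dehydrogenases, the trifunctional protein and thiolases, while very long and branched chains are shortened in peroxisomes, whose oxidases make hydrogen peroxide that catalase removes. In the kidney this metabolism is best known from the proximal tubule, which is rich in mitochondria and peroxisomes and lives largely on fatty acids.

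Each genotype had a single array of pooled RNA, so the genotype could not be tested and the error between animals is unknown. Levels are RMA values on the log2 scale, differences are RBP-J cKO minus wild type, and the floor is 7.56, the median over the named probe sets, which a gene passed if either array reached it. Probe sets differ in how brightly they report, so levels are compared between arrays and never between genes. In bulk RNA, fewer cells of a type and less RNA per cell cannot be told apart. Genotype also cannot be told apart from the sex makeup of the pools. Rbpj itself read 9.02 in cKO and 9.0 in wild type (probe set 10521913), which does not check the labels, since other cells keep the gene and the place of the probes within it is unknown here. Another Rbpj probe set (10521911) was below the floor, at 5.81 in cKO and 5.93 in wild type. Markers of the arteriole wall were present on both arrays, with Acta2 at 11.36 in cKO and 11.21 in wild type and Ren1 at 10.19 in cKO and 10.77 in wild type. Markers of proximal tubule were present on both as well, and are given with those of other cell types after the pathway genes.

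Most fatty acid oxidation and peroxisome genes were higher in the RBP-J cKO pool, by small amounts. Of the 70 genes 61 were above the floor, and 54 of these were higher and 7 lower, against 53.9% of all 11580 genes above the floor that were higher and 46% that were lower. The median difference of the 61 was 0.21, with quartiles of 0.10 and 0.36, against a median of 0.02 and quartiles of -0.12 and 0.20 over all genes. Of 16 proximal tubule marker genes 15 were higher on the same arrays, with a median of 0.27, and the part of this in the result was not tested. Large differences were rare. Acsm3 alone was at least 2-fold higher (background 0.855% of genes) and Hao2 alone at least 2-fold lower (background 0.199%). At 1.5-fold 4 were higher (background 4.11%), adding Acot12, Acadm and Acsm5, and 2 were lower (background 1.61%), adding Acot3. These added calls lay near the threshold and depended on the processing. Median centring left 2 higher, Acsm3 and Acot12, and loess centring left Acsm3 alone. With dChip values 6 were higher, with Acad10, Acox2 and Acox3 past 1.5-fold and Acadm under it, and Hao2 alone was lower. Of the 61 genes 24 lay within 0.2 of equality. Over all genes both quartiles (-0.12 and 0.20) lay within that range, so differences this small were less common among the members.

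**Figure D1:**
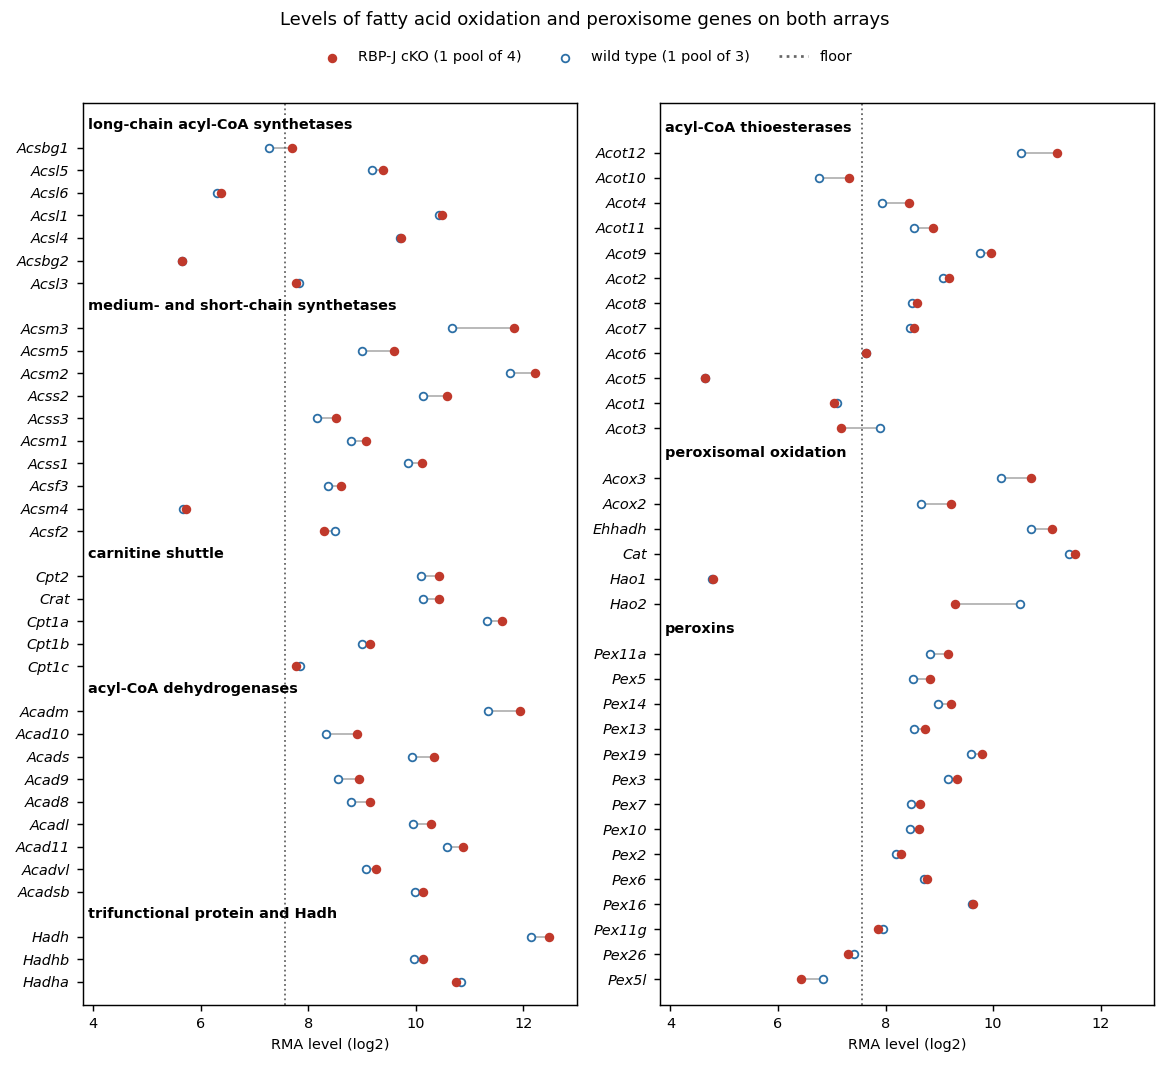
RMA levels (log2, x axis) of 66 of the genes on the RBP-J cKO array (filled points) and the wild type array (open points), arranged by role, 1 pooled sample per point; the dotted line is the floor at 7.56. Filled points lie to the right of open points for most genes, with Hao2 and Acot3 the widest gaps in the other direction.

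In the authors' deposited table of dChip intensities each gene has a signed fold with a lower and an upper bound, of a confidence level that the sources used here do not state. In the authors' deposited table both bounds lay above 1 for 48 of the 61 genes, against 43.6% of all genes above the floor, and both lay beyond -1 for 7, against 34.7%. For the other 6 a bound reached or crossed 1. These bounds come from the probes of single arrays and hold no variation between animals. The direction of 5 of the 61 genes turned between RMA and dChip, a share similar to the 1184 of all 11580 genes above the floor. The 5 were Acsbg1, Acot6, Acot7, Pex6 and Pex11g. Of these Acsbg1 moved by most, at 0.43 with RMA and -0.10 with dChip. Centring on a loess trend over level, an alternative, turned Acsl1, Acsl4, Cat, Pex16 and Acot6.

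**Figure D2:**
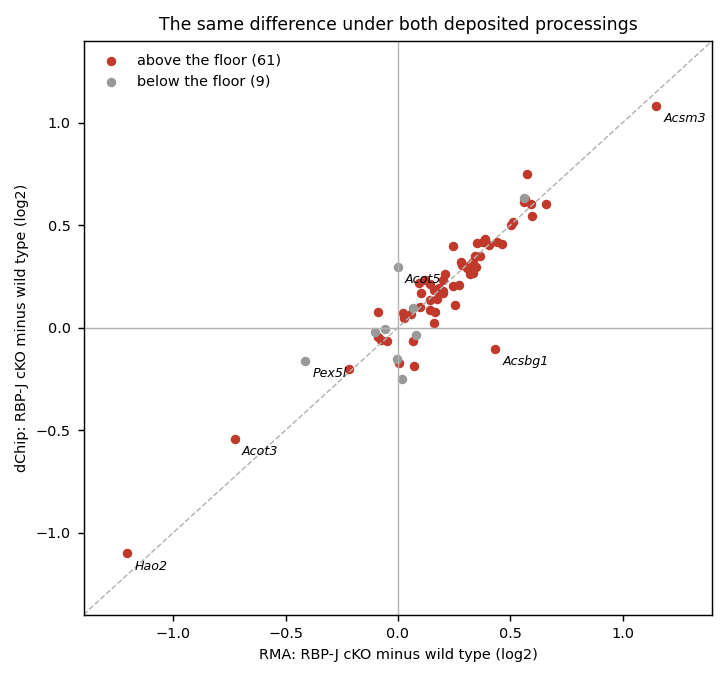
Log2 difference of each gene (RBP-J cKO minus wild type) with RMA (x axis) and with log2 dChip intensities (y axis); red points are the 61 genes above the floor, grey points the 9 below it, and the dashed line marks equality. Most points lie near the dashed line, and Acsbg1 lies far from it at 0.43 and -0.10.

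Most synthetase genes for medium and short chains were higher in cKO. Of 10 such genes 9 were above the floor and 8 of these were higher, with a median of 0.35. Acsm3, a mitochondrial medium-chain synthetase gene known in mouse kidney for its dependence on androgen, read 11.82 on the cKO array and 10.67 on the wild type array (probe set 10556769), a difference of 1.15 or 2.22-fold. The authors' deposited table gives it intensities of 4341 in cKO and 2052 in wild type, for a signed fold of 2.12 (bounds 2.05 and 2.19). The Acsm genes are relatives that lie together on chromosome 7, where Acsm5, Acsm2, Acsm1 and Acsm4 are direct neighbours and Acsm3 follows after 2 other genes. The difference was 0.59 for Acsm5, 0.47 for Acsm2, the kidney and liver enzyme that also activates benzoate, and 0.27 for Acsm1. Acsm4 was below the floor at 5.73 in cKO and 5.66 in wild type. So the members of the cluster that were above the floor were all higher, by unequal amounts.

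Among the synthetases of the shortest acids Acss2, which makes acetyl-CoA from acetate in cytosol and nucleus, read 10.58 in cKO and 10.14 in wild type. Its mitochondrial counterpart Acss1 differed by 0.25 and Acss3 by 0.35. Acsf3, the malonyl-CoA synthetase gene of mitochondria, differed by 0.24. The exception was Acsf2, whose probe sets differed by -0.22 and -0.10, the first of them the one used here.

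Long-chain synthetase genes were close to equal. Of 7, the 5 above the floor had a median of 0.06, and this turned to -0.014 when differences were centred on a loess trend over level. Acsl1, the main long-chain synthetase of oxidative tissues, read 10.49 in cKO and 10.43 in wild type. Acsl4, which prefers arachidonate, read 9.73 in cKO and 9.70 in wild type. Acsl5 differed by 0.20 and Acsl3 by -0.05, and the signs of Acsl1 and Acsl4 also turned with loess centring. Acsbg1, the gene of a very-long-chain synthetase, read 7.70 in cKO, just above the floor, and 7.26 in wild type, below it. Acsl6 and Acsbg2 were below the floor on both arrays.

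Both transferase steps of the carnitine shuttle were higher in cKO. Cpt1a, the rate-limiting transferase of the outer membrane, read 11.60 in cKO and 11.32 in wild type. Cpt2, which returns the chain to coenzyme A in the matrix, read 10.42 in cKO and 10.09 in wild type, a difference of 0.33. Crat, which exchanges short acyl groups, differed by 0.28. The isoform genes of other tissues differed by less: Cpt1b, the muscle isoform, by 0.14 and Cpt1c, the brain isoform, by -0.08. The median of the 5 genes was 0.28.

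All 9 acyl-CoA dehydrogenase genes were above the floor and higher in cKO, under each alternative of centring and with the dChip values, with a median of 0.36. These flavoenzymes carry out the opening step of each beta-oxidation round and differ in the chain length they accept. Acadm, for medium chains, read 11.93 in cKO and 11.33 in wild type (probe set 10502951), a difference of 0.60 or 1.51-fold. Acads, for short chains, differed by 0.41, Acadl, for long chains, by 0.33 and Acadvl, for very long chains, by 0.18. Of these 4 straight-chain genes the medium-chain one had the largest difference. Acad10 read 8.90 in cKO and 8.32 in wild type, a difference of 0.58 or 1.49-fold. In the authors' deposited table its signed fold was 1.68 (bounds 1.6 and 1.77). Acad11 differed by 0.31. Acad9, also needed to assemble respiratory complex I, differed by 0.38. The dehydrogenase genes of branched amino acid breakdown were Acad8, of the valine path, at 0.36 and Acadsb, of the isoleucine path, at 0.14.

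The genes of the next steps that carry the Hadh name were not all higher. Hadh, the short-chain hydroxyacyl-CoA dehydrogenase gene, read 12.47 in cKO and 12.15 in wild type. Hadha and Hadhb, the paired subunits of the trifunctional protein for long chains and direct neighbours on chromosome 5, differed by -0.09 and 0.16. Hadha read 10.75 in cKO and 10.84 in wild type, so the subunits of the long-chain complex differed in direction, each by little.

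Acyl-CoA thioesterases, which release free fatty acids from coenzyme A, were mostly higher by small amounts. Of 12 genes 9 were above the floor, with 8 higher, 1 lower and a median of 0.12 (0.23 with the dChip values, where 6 were higher). Acot12, the cytosolic acetyl-CoA hydrolase gene, read 11.18 in cKO and 10.52 in wild type (probe set 10406564), a difference of 0.66 or 1.58-fold. Acot11 differed by 0.35, Acot9 by 0.20 and the peroxisomal Acot8 by 0.10. Acot10, a close relative of Acot9, was below the floor at 7.33 in cKO and 6.77 in wild type.

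Neighbouring thioesterase genes went in opposite directions. Acot2, Acot1, Acot4, Acot3, Acot5 and Acot6 follow each other on chromosome 12 with no other coding gene between them. Acot4, a peroxisomal thioesterase gene, read 8.44 in cKO and 7.94 in wild type, a difference of 0.50. Acot3, the gene next to it, read 7.17 in cKO, below the floor, and 7.89 in wild type, a difference of -0.73, so its size is uncertain. In the authors' deposited table the signed fold was 1.42 for Acot4, with bounds of 1.32 and 1.52, and -1.46 for Acot3, with bounds of -1.35 and -1.58. The mitochondrial Acot2 differed by 0.12 and Acot6 by 0.003, while Acot1 and Acot5 were below the floor. These genes are close copies, and probes of one may also read another, so single values in this cluster are uncertain. Promoters of the pair that went in opposite directions are shown here as the 250 bases before the annotated start (RefSeq), with each TGACCT, on either strand, in capitals. This hexamer is the core that PPAR and other nuclear receptors bind, mostly as a repeat.
Acot4 (GRCm38.p6, chr12:84038129-84038378, + strand): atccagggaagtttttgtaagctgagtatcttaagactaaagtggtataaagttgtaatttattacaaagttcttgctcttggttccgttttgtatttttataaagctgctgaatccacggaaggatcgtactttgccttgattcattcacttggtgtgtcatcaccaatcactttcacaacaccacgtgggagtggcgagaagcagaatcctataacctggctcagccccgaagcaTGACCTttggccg
Acot3 (GRCm38.p6, chr12:84051894-84052143, + strand): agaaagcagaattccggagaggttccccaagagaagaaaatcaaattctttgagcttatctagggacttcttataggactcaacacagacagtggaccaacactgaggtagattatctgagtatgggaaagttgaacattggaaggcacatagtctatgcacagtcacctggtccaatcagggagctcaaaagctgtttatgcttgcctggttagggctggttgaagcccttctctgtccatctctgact
The Acot4 window held 1 hexamer, 13 bases before the start, and the Acot3 window held none. Such a hexamer lies in the same 250 bases of 15.8% of all genes, and its part in these differences was not tested.

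Peroxisomal oxidation had the widest range of the role groups, -1.20 to 0.56, with 5 of the 6 genes above the floor higher and a median of 0.45. Acox2, the oxidase gene for bile acid precursors and branched chains, read 9.22 in cKO and 8.66 in wild type. Acox3, an oxidase gene for branched chains, read 10.71 in cKO and 10.14 in wild type. Each differed by 0.56, under 1.5-fold, and by 0.62 and 0.63 with dChip values, over it. Ehhadh, the bifunctional enzyme gene of the steps after the oxidases, read 11.09 in cKO and 10.70 in wild type. Cat, encoding catalase, was nearer to equal at 11.52 in cKO and 11.41 in wild type, and its difference of 0.10 became -0.01 with loess centring.

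Hao2, named Hao3 in the deposited table, went against these. It encodes a peroxisomal oxidase of long-chain hydroxy acids found in kidney and liver, and read 9.30 in cKO and 10.50 in wild type (probe set 10500570), a difference of -1.20 or 2.30-fold lower. The authors' deposited table gives it intensities of 1351 in cKO and 2899 in wild type, for a signed fold of -2.15 (bounds -2.08 and -2.21). In the authors' deposited table the comparison filter marked 2 members above the floor, Acsm3 as higher and Hao2 as lower (background 0.915% and 0.147% of genes). Both are also on the list of genes known to differ by sex in mouse kidney, and the pools differed in sex. Hao1, the glycolate oxidase gene of liver, was below the floor on both arrays. Promoter windows of the genes past 2-fold follow in the same form.
Acsm3 (GRCm38.p6, chr7:119760673-119760922, + strand): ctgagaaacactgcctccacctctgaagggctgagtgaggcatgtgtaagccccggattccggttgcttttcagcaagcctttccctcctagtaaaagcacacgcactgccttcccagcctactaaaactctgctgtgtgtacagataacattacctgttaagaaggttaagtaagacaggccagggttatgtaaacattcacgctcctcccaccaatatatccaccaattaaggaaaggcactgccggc
Hao2 (GRCm38.p6, chr3:98893231-98893480, - strand): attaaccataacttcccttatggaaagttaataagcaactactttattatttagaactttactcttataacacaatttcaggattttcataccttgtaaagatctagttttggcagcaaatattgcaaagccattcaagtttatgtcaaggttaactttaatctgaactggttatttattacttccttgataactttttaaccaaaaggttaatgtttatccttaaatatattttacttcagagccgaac
Neither window held a TGACCT hexamer, which says only that these letters are not in these 250 bases.

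Peroxin genes, which serve the making of the organelle rather than its chemistry, differed little and evenly. Of 17 genes 15 were above the floor, with 14 higher, a median of 0.17 and a range of -0.09 to 0.34, and none reached 1.5-fold. The import receptor gene Pex5, for proteins with a C-terminal signal, read 8.83 in cKO and 8.51 in wild type, and Pex7, for those with an N-terminal signal, differed by 0.17. Docking genes Pex14 and Pex13 differed by 0.25 and 0.21. The ubiquitin ligase genes Pex10 and Pex2 differed by 0.16 and 0.09, and the export ATPase gene Pex6 by 0.07. These import genes were thus slightly higher with RMA, while Pex6 turned to -0.06 with dChip. Pex26, the membrane anchor gene of the export step, was below the floor at 7.31 in cKO and 7.41 in wild type.

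Genes that insert membrane proteins were Pex19, which read 9.79 in cKO and 9.59 in wild type, Pex3 at a difference of 0.18 and Pex16, which read 9.63 in cKO and 9.60 in wild type. Of the division genes Pex11a, the isoform induced by PPAR alpha ligands in rodent liver, read 9.17 in cKO and 8.83 in wild type, the largest peroxin difference at 0.34. Pex11g, named Pex11c in the deposited table, differed by -0.09 with RMA and 0.08 with dChip. Pex5l, a brain relative of Pex5, was below the floor at 6.43 in cKO and 6.84 in wild type.

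**Figure D3:**
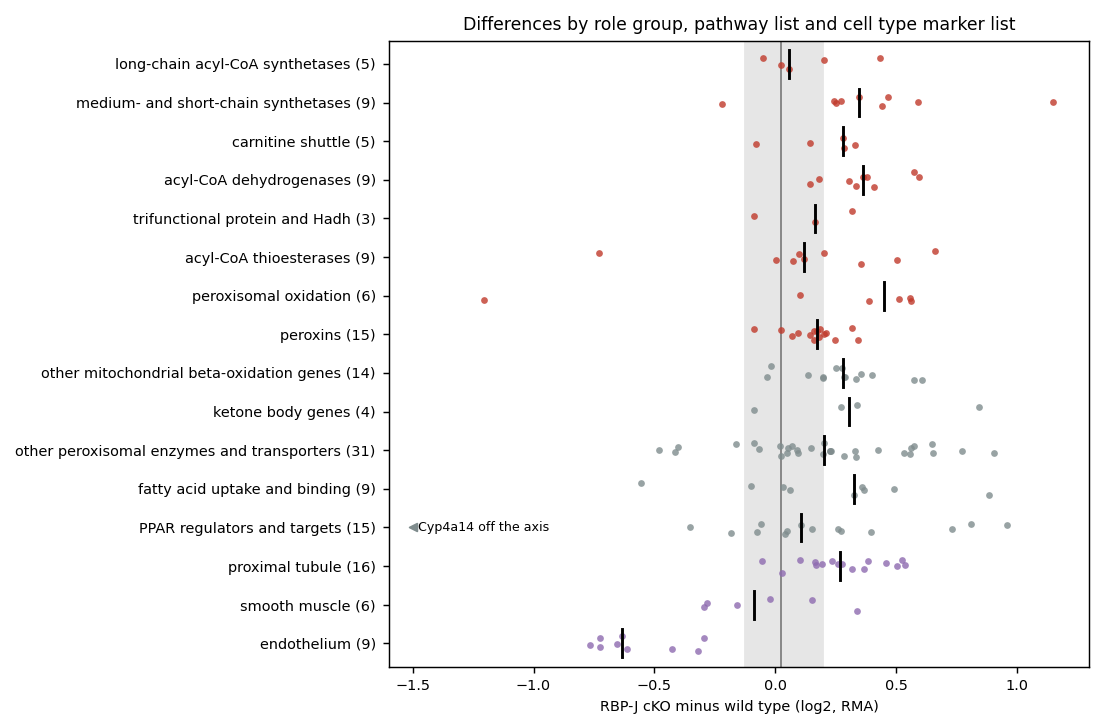
Log2 difference (RBP-J cKO minus wild type, x axis) of each gene above the floor, by role group (red), pathway list (grey) and cell type marker list (purple), with the number of genes in brackets and each median as a black bar; the shaded band and grey line are the quartiles and median of all genes. Medians run from 0.06 for long-chain synthetases to 0.45 for peroxisomal oxidation, beside 0.27 for proximal tubule markers and -0.63 for endothelial markers; Cyp4a14, at -4.11, lies off the axis.

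Other genes of the same pathways were mostly higher too. The list of other mitochondrial genes held 14, with a median of 0.28. Of these 14 genes 12 were higher and 2 lower, also with both centrings and with dChip values. The widest apart were the hydratase gene Echs1 at 0.61, the thiolase gene Acat1 at 0.58 and Hsd17b10 at 0.40. The 2 lower genes, Acaca and Acacb, encode acetyl-CoA carboxylases, which make malonyl-CoA, the inhibitor of Cpt1, and differed by -0.04 and -0.02. Of 34 other peroxisomal genes 31 were above the floor and 25 of these were higher, with a median of 0.20, and the 3 widest apart were Amacr, the racemase gene of branched chains, at 0.90, the coenzyme A diphosphatase gene Nudt19 at 0.77 and the ether lipid synthesis gene Agps at 0.65. Nudt19 differed by 0.39 when its probe sets were averaged. Of the 6 lower genes Xdh, encoding xanthine dehydrogenase of purine breakdown, differed by -0.48, Hacl1, the lyase gene of alpha-oxidation, by -0.41 and the thiolase genes Acaa1b and Acaa1a by -0.40 and -0.16.

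Ketone body genes numbered 4, with 3 higher. Bdh1, the hydroxybutyrate dehydrogenase gene, read 9.60 in cKO and 8.76 in wild type, a difference of 0.84. Oxct1, whose enzyme returns ketone bodies to coenzyme A for burning, differed by 0.27. For fatty acid uptake and binding 7 of 9 genes were higher, with a median of 0.32 that was 0.062 over all 11 without the floor. The scavenger receptor gene Cd36 differed by 0.89 and the muscle and kidney binding protein gene Fabp3 by 0.49, and Fabp4, the binding protein gene of fat and capillary endothelium, by -0.56. Fabp3 differed by 0.25 when its probe sets were averaged.

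Regulators and targets of PPAR, the nuclear receptors that switch on much of this pathway, showed no shared direction. Of 15 above the floor 10 were higher and 5 lower, with a median of 0.11 and, because of 1 gene, a mean of -0.07. That gene was Cyp4a14, a fatty acid hydroxylase gene, which read 6.54 in cKO, below the floor, and 10.65 in wild type. Like Acsm3 and Hao2, Cyp4a14 is on the list of genes known to differ by sex in mouse kidney, and the pools differed in sex. The Cyp4a14 relatives Cyp4a12a and Cyp4a12b, dependent on androgen in mouse kidney, differed by 0.96 and 0.81, and Cyp4a10 by -0.35. Ppara differed by 0.27, the coactivator gene Ppargc1a by 0.40 and the targets Pdk4 and Angptl4 by 0.26 and 0.11. Other regulators were lower or near equal: Pparg at -0.18, Ppargc1b at -0.07, Esrra at -0.06, Ppard at 0.04 and Rxra at 0.05. Acot1, a strong target of PPAR alpha in mouse liver, was below the floor on both arrays, at 7.03 in cKO and 7.09 in wild type.

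Of the 70 genes 57 matched a promoter by symbol in the RefSeq table of GRCm38.p6, which holds 27025 genes. The repeat, 2 copies of AGGTCA with 1 base between, was searched on both strands in the 250 bases before the start. It was in 0 of the 57, against 0.0407% of all genes, and a looser form with AGGNCA in place of AGGTCA was also in 0, against 0.4%. With so rare a repeat, 0 of 57 is near the background and says nothing of the members. A single TGACCT, which is AGGTCA read on the other strand and so lies within each strict repeat, was in 11 of 57 or 19.3%, against 15.8% of all. The 9 of these above the floor had a median difference of 0.27, and the 41 without it 0.24. Among the 11 were Acadm, Acot12, Cpt1a, Cat and Acadvl, which were higher, and Cpt1c and Pex11g, which were lower with RMA (-0.08 and -0.09). The letters CCAAT, the core of a common promoter box, were in 29 of 57 or 50.9%, against 37.5% of all, and CACGTG, an E-box, in 3 of 57 (Acot11, Acot4 and Acsm5) or 5.26%, against 6.86%. A match is a run of letters and not a bound site.

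Cell type markers also differed between the arrays, in both directions. All 16 markers of proximal tubule were above the floor, with 15 higher, a median of 0.27, levels of 9.96 to 12.95 in cKO and 9.70 to 12.85 in wild type, and a summed linear level 1.20 times as high in cKO, a sum in which bright probe sets weigh most. With loess centring 13 of the 16 were higher, with a median of 0.17. Of 9 thick limb and distal tubule markers 8 were higher (median 0.34, or 0.21 with loess centring), of 8 collecting duct markers 7 (0.61) and of 10 macrophage markers all 10 (1.13). Endothelial markers were lower in 9 of 9 (median -0.63), podocyte markers in 5 of 5 (-0.42), and smooth muscle markers of the arteriole wall in 4 of 6 (-0.09, or -0.21 with dChip values). Of the renin cell markers Ren1 differed by -0.58 and Akr1b7 was below the floor. Only the cKO mice carried cre at 1 Ren1d allele, and the part of this in the Ren1 level was not tested. The part of these other markers was not tested either.

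Markers of fat and striated muscle, other tissues rich in these enzymes, were mostly below the floor. Of 8 adipocyte markers 6 were below the floor, including Adipoq at 4.52 in cKO and 4.27 in wild type, and those above were Car3 at 1.27 and Fabp4. Of 5 striated muscle markers 4 were below it, including Ckm. Of 5 red cell markers 4 were above the floor and all 4 were higher (median 0.40, or 0.23 over all 5 without the floor). Slc4a1, at 0.57, is on both this list and that of the collecting duct. Of 13 circadian clock genes 10 were lower (median -0.37). Arntl and Npas2 were each higher by 1.73 with RMA, and by 1.85 and 1.33 with dChip values. Both were below the floor in wild type, at 6.19 and 6.13, so these sizes are uncertain. Of 5 sex-linked genes the 4 of the Y chromosome were higher and Xist read 5.41 in cKO and 11.39 in wild type. Of 11 genes listed as sex-biased in kidney, Acsm2, Acsm3 and Hao2 among them, 8 were higher and 3 lower. Without those 3 the median of the remaining 58 members was 0.21, but leaving out so few genes can hardly move a median. This value therefore says nothing of the part of sex. The part of time of day and of sex in these results was not tested.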

How the data were processed

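RNA of preglomerular arterioles was hybridised to 1 Affymetrix array per pool, 1 for RBP-J cKO and 1 for wild type, prepared with the Ambion WT Expression Kit per the labels' protocols. The authors deposited RMA log2 values of 34760 probe sets. Per the submitters' processing notes, R 2.15.0 and limma 3.12.1 were also used, in roles not stated. The authors also deposited linear intensity values computed with dChip for 35512 probe sets and, per the file headers, a fold score of cKO over wild type, signed minus where wild type is brighter, with its bounds. The sources used here name neither the dChip version nor the genome build. Since RMA usually aligns the arrays' distributions, a general shift in expression may be hidden. Over all probe sets the arrays had medians of 7.21 (cKO) and 7.25 (wild type) and correlated at r = 0.987.

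Symbols came from the dChip table and were updated with RefSeq names of GRCm38.p6, which changed 2 of the 70 members. The members had 72 probe sets, 71 of them with RMA values (a second one of Hadhb had none). For each gene the probe set of the highest mean was used, giving 22270 genes, 11580 above the floor. With 1 array a group, genes were compared by log2 difference, at 2-fold or 1.5-fold, and no test was made. The number of arrays limits the precision. No value was set or imputed. Counting and centring were tested on simulated data. The members, role groups and lists were chosen with earlier results of these data known.

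The rule for naming took members at least 1.5-fold apart, in each role group the 2 of the highest mean level and the 2 of the largest absolute difference, and in each pathway list the 3 of the largest absolute difference. Other genes named were chosen after their values were seen. A few genes covered by the rule are left out of the text and the plot of levels. Alternatives tried were dChip values, dropping the floor or raising it to the 75th percentile, loess (span 0.3) or median centring, the mean over probe sets, a 1.5-fold threshold and leaving out single members or those listed as sex-biased. Software was pandas 2.3.3, statsmodels 0.14.6, SciPy 1.17.1, NumPy 2.4.6 and matplotlib 3.10.9 under Python 3.11.15.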

Additional observations from a re-analysis of the deposited data

How the results depend on the processing

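Over the 9 settings tried, the median difference of the members ranged from 0.18 with loess centring to 0.28 with the floor at the 75th percentile, and 1 member was at least 2-fold higher and 1 at least 2-fold lower under each setting of floor, centring, processing and probe set. The number higher at any size, whose alternatives were chosen after seeing the data, was 58 of 70 without the floor, 36 of 38 with the stricter floor, 53 with median centring, 49 with loess centring and 51 with dChip values, against 54. With the threshold at 1.5-fold 4 members were higher and 2 lower. In alternatives also chosen after seeing the data, the 4 became 2 with median centring, 1 with loess centring and 6 with dChip values, and the 2 became 1 with the stricter floor and with dChip values. Loess centring turned the long-chain synthetase median to -0.014 and gave 0.16 for the carnitine shuttle, 0.34 for peroxisomal oxidation and 0.22 for fatty acid uptake. With dChip values the thioesterase median was 0.23. The stricter floor gave 0.45 for medium- and short-chain synthetases and 0.27 for PPAR regulators and targets. Without the floor the fatty acid uptake median was 0.062. Without the member of the largest absolute difference it was 0.19, and that of the trifunctional protein and Hadh, then 2 genes, was 0.037. The causes of these shifts were not tested. Among marker lists the median moved to 0.21 with loess centring for thick limb and distal tubule, to -0.21 with dChip values for smooth muscle, and for red cells to 0.23 without the floor. Of 376 alternative values in all, 349 moved by less than the limit used: 0.1 for a list median, the standard deviation across genes above the floor (0.31) for a single gene, and 1.5 times for a count. In all, 26 moved further and the long-chain median reversed, and 5 of the 168 single-gene values changed sign. No paired analysis was possible because each group holds 1 pooled array. Signal over background limits members such as Acot3 and Acsbg1, each below the floor on 1 array, and the 9 members below it on both.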
